A study of Mus musculus with 10 samples.

Results

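Primary mouse cardiomyocytes (CM) were compared with induced cardiomyocyte-like cells (iCM) that had received GW501516, a synthetic agonist of the nuclear receptor PPARδ. The comparison used the 4 libraries of these groups, 2 each, out of 10 in the series, and covered all 15740 genes with enough counts to test among the 21513 gene symbols counted. Both groups came from the heart of wild-type mouse pups labelled P1-P3 and were sequenced as polyadenylated RNA. The CM were taken at day 3. The iCM carried the label MGT, which stands for the reprogramming factors Mef2c, Gata4 and Tbx5, were made from cardiac fibroblasts and were taken at day 14. The day therefore changed together with the cell type, and the contributions of the day and the cell type cannot be told apart. The other 6 libraries, iCM with the solvent DMSO, iCM with ZLN005 and cardiac fibroblasts (CF) with no factor or agent named, each taken at day 14, entered the estimate of the spread and serve here as reference levels. The labels name neither a dose nor a treatment length, and no label states that replicates of a group are separate animals or separate cultures. Every p-value below therefore rests on the spread between libraries, which may be technical. The series' design text names the question, which is how alike treated iCM and primary cardiomyocytes are.

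The working cardiomyocytes of the ventricle and atrium are packed with sarcomeres, in which myosin thick filaments pull on actin thin filaments anchored at the Z disc. Around birth these cells still divide, and in the following weeks they leave the cell cycle, change many fetal protein isoforms for adult ones and turn from glucose to fatty acids as fuel. The coactivator PGC1α, encoded by Ppargc1a, raises mitochondrial genes together with the estrogen-related receptors. PPARδ, encoded by Ppard, is a fatty acid sensor that raises genes of fat uptake and burning, among them Angptl4, Pdk4 and Cpt1a, when a ligand such as GW501516 binds it. Direct reprogramming forces cardiac transcription factors into fibroblasts, and only some of the treated cells take on a muscle program.

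Total counts were between 40290880 and 46978740 in these 4 libraries. The cell type and treatment fields of the CM samples repeat the entries of the fibroblasts, so the titles, which call them cardiomyocytes, were used and checked against markers. Myh6, the alpha myosin heavy chain, stood at 9652 and 9642 CPM in the CM libraries and at 38.99 and 41.4 in the CF libraries. CPM are a gene's counts scaled to the library total, with the TMM method between libraries. The other defining cardiomyocyte genes, Tnnt2, Tnni3, Actn2, Ryr2, Nkx2-5 and Myl2, were also higher in both CM libraries than in both CF libraries. The CM libraries held fibroblast transcripts too. Col1a1 stood there at 5290.1 and 5062 CPM against 10200.2 and 11616 CPM in CF, Pdgfra at 107 and 101 against 614 and 661 CPM, and Dcn at 195 and 198 against 753 and 748 CPM. Postn, also a fibroblast marker, went the other way, at 1729 and 1766 CPM in CM and 740 and 768 CPM in CF. In GW501516 iCM, Pdgfra was at 92.2 and 95.5 CPM and Dcn at 169 and 166 CPM. In bulk RNA, fewer cells of a type and less RNA per cell cannot be told apart, and this holds for every value below. The replicates lay close together, with a Pearson correlation of log2 CPM of 0.991 in each of the groups.

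The transcriptomes differed widely. Of the 15740 genes tested, 5300 were higher in CM (33.7%) and 5273 were lower (33.5%) at an adjusted p of 0.05 or less in edgeR's quasi-likelihood test, so 67.2% of all genes were called. The change is given throughout as CM minus GW501516 iCM on the log2 scale, with its standard error (SE). Levels are given for each library, those of CM first, and "against" then introduces those of GW501516 iCM. The median change over all genes was −0.0039 and the median size was 0.61. For 7915 genes (50.3%) the 95% interval of the change lay inside a 2-fold band in either direction. For 1465 genes (9.31%) it lay wholly above 2-fold and for 1490 (9.47%) wholly below, while for 4870 it reached across the limit. Both CM libraries stood above both GW501516 libraries in 42.1% of genes and below them in 42.8%. Of the 10573 called genes, 5130 had an interval inside the 2-fold band, so the named genes are given below by size as well as by call. The first principal component of all 10 libraries held 54.8% of the variance and placed the CM libraries at −141 and −142, the GW501516 libraries at 30.0 and 29.7 and the CF libraries at 51.3 and 36.9.

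**Figure D1:**
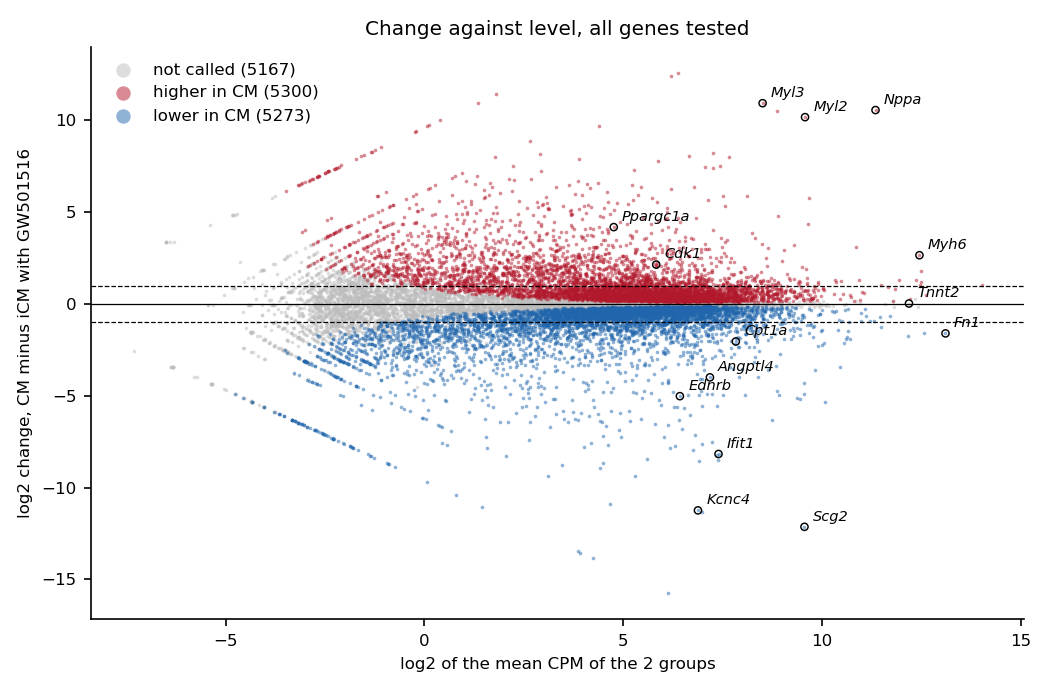
Each point is a gene, with the log2 of its mean CPM over the 2 groups on the horizontal axis and its log2 change (CM minus GW501516 iCM) on the vertical axis. Red points were called higher in CM (5300), blue points lower (5273) and grey points were not called (5167). Dashed lines mark 2-fold, and the slanted edges at low level are genes with no count in a group, whose plotted change depends on the prior count of the fit. Myl2, Myl3 and Nppa lie above 10 on the vertical axis, Tnnt2 near 0, and Ifit1, Kcnc4 and Scg2 below −8. The 10 genes at 0 in all 4 libraries are not drawn.

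Thick filament genes were mostly higher in CM. Of the 20 tested genes of the thick filament and M band, 17 were higher and 3 lower in CM (33.7% and 33.5% of all genes tested), with a median log2 change of 3.02, and 14 were more than 2-fold higher with their whole interval (9.31% of all genes). These genes took 2.35% of the counts in each CM library, 0.837% and 0.823% in the GW501516 libraries and 0.0339% and 0.0388% in CF. Myh6 was read at 9652 and 9642 CPM in CM and at 1517 and 1550.3 CPM in GW501516 iCM. Mybpc3, the myosin-binding protein C of heart muscle, was read at 1532 and 1528 CPM in CM and at 74.9 and 73.4 CPM in GW501516 iCM. In both genes the CM libraries lay above the GW501516 libraries without overlap, 6.29-fold for Myh6 (log2 change 2.65, SE 0.064, adjusted p = 1.7e-10) and 20.6-fold for Mybpc3 (log2 change 4.37, SE 0.073, adjusted p = 2e-11).

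The ventricular light chains stood furthest apart in this list. Myl2, the regulatory light chain of the ventricle, was at 1514 and 1527 CPM in CM and at 1.64 and 0.979 CPM in GW501516 iCM. Myl3, the essential light chain of the ventricle and of slow skeletal muscle, was at 702 and 749 CPM in CM and at 0.387 and 0.351 CPM in GW501516 iCM. Both genes were below the fibroblast level in the GW501516 libraries, and CF held 7.05 and 9.48 CPM of Myl2 and 3.40 and 5.51 CPM of Myl3. The change was 10.17 (SE 0.17, adjusted p = 2e-11) for Myl2 and 10.93 (SE 0.24, adjusted p = 9.1e-11) for Myl3. Mylk3, the cardiac kinase that phosphorylates the regulatory light chain, was at 217 and 216 CPM in CM and at 2.71 and 2.46 CPM in GW501516 iCM, and Myh7, the beta myosin heavy chain of the fetal heart and slow muscle, at 164 and 166 against 7.85 and 7.13 CPM. CM were 83.7-fold higher in Mylk3 (adjusted p = 2.5e-11) and 22.0-fold higher in Myh7 (adjusted p = 2e-11). Reads from stretches that Myh6 and Myh7 share may be assigned to either gene.

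Of the atrial partners 1 was lower in CM and 1 higher. Myl4, the essential light chain of the atrium and of embryonic muscle, was at 1613 and 1680.5 CPM in CM and at 3160.4 and 3042 CPM in GW501516 iCM, and was thus 1.88-fold lower in CM (adjusted p = 0.00022). Myl7, the atrial regulatory light chain, was at 2453 and 2566 CPM in CM and 1664 and 1586 CPM in GW501516 iCM, where CM were 1.54-fold higher with an interval inside 2-fold. Myom1, an M-band myomesin that crosslinks thick filaments, was 1.63-fold higher in CM (925 and 911 against 556 and 567 CPM), and its relative Myom2 was 1.41-fold lower (520.2 and 513 against 725 and 731 CPM, adjusted p = 1.2e-05).

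Thin filament genes gave a median log2 change of 3.04. Of 17 tested 13 were higher and 2 lower in CM (33.7% and 33.5% of all genes), and 2 were not called. Tnnt2, the troponin T of heart muscle, did not differ beyond the spread. It was at 4738 and 4658 CPM in CM and at 4617 and 4618 CPM in GW501516 iCM, with the libraries of both groups within a narrow range, and its change was 0.025 (SE 0.17, adjusted p = 0.9) with an interval from −0.35 to 0.40. In CF it was at 255 and 419 CPM. Other members of this list, which also takes in proteins that anchor the filament, were far apart. Actn2, the alpha-actinin that ties actin to the Z disc, was at 1117 and 1128 CPM in CM and 123 and 123 CPM in GW501516 iCM (9.10-fold, adjusted p = 9.6e-12). Tnni1, the slow skeletal troponin I that the fetal heart uses, was at 322 and 281 CPM in CM and 1.79 and 1.76 CPM in GW501516 iCM. Nebl, the cardiac nebulin relative nebulette, was at 378 and 353 against 9.38 and 9.06 CPM, and Nrap, an anchoring protein of growing myofibrils, at 367 and 346 against 6.84 and 5.04 CPM. In these 3 genes too the groups did not overlap, and CM were higher by 7.41 (SE 0.14), 5.31 (SE 0.081) and 5.90 (SE 0.12) on the log2 scale. The 2 members lower in CM were Tnnt3, the troponin T of fast skeletal muscle (11.03 and 13.1 against 51.3 and 48.4 CPM, adjusted p = 1.5e-08), and Tmod4, a thin filament capping protein of skeletal muscle (0.862 and 1.10 against 1.69 and 1.86 CPM, adjusted p = 0.019). The call of Tmod4 was lost without CM replicate 1 (adjusted p = 0.11) or GW501516 replicate 2 (0.0786). Tpm1, tropomyosin 1, was at 5017 and 5259 against 4328 and 4287 CPM and only 1.19-fold higher in CM, a call that was lost when any of the 4 libraries was left out (adjusted p from 0.0823 to 0.171).

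At the Z disc and costamere, 14 of 23 genes were higher in CM and 5 lower (33.7% and 33.5% of all genes), with a median of 0.69. Csrp3, the muscle LIM protein, was at 587 and 580.00 CPM in CM and 46.5 and 51.1 CPM in GW501516 iCM. Cav3, the caveolin of muscle membranes, was at 187 and 189 against 25.0 and 22.1 CPM. Smpx, a small muscle protein of the costamere, was at 652 and 658 against 119 and 112 CPM, and Synpo2l, a Z-disc protein that binds actin, at 643 and 631 against 149 and 150.02 CPM. All 4 were higher in both CM libraries than in both GW501516 libraries, by 11.95-, 7.97-, 5.67- and 4.26-fold in the order given. Fhl2, a LIM-domain cofactor abundant in heart, was the largest fall in this list, at 389 and 412 CPM in CM and 1743 and 1700.1 CPM in GW501516 iCM (log2 change −2.10, SE 0.10, adjusted p = 2.8e-08). Myoz1, a calcineurin-binding Z-disc protein of fast skeletal muscle, was also lower in CM (1.44 and 1.69 against 5.12 and 4.77 CPM, adjusted p = 0.00017). Ankrd1, a stretch-responsive ankyrin repeat protein, was abundant in both groups (5547 and 5704 against 4757 and 4702 CPM). It was not called with the spread shared over all 5 groups (adjusted p = 0.067). Without CF in the fit it was called higher in CM (adjusted p = 6.4e-09). Pdlim5, a PDZ and LIM domain scaffold, was 1.79-fold higher in CM with its interval inside 2-fold (1341 and 1342 against 754 and 748 CPM).

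**Figure D2:**
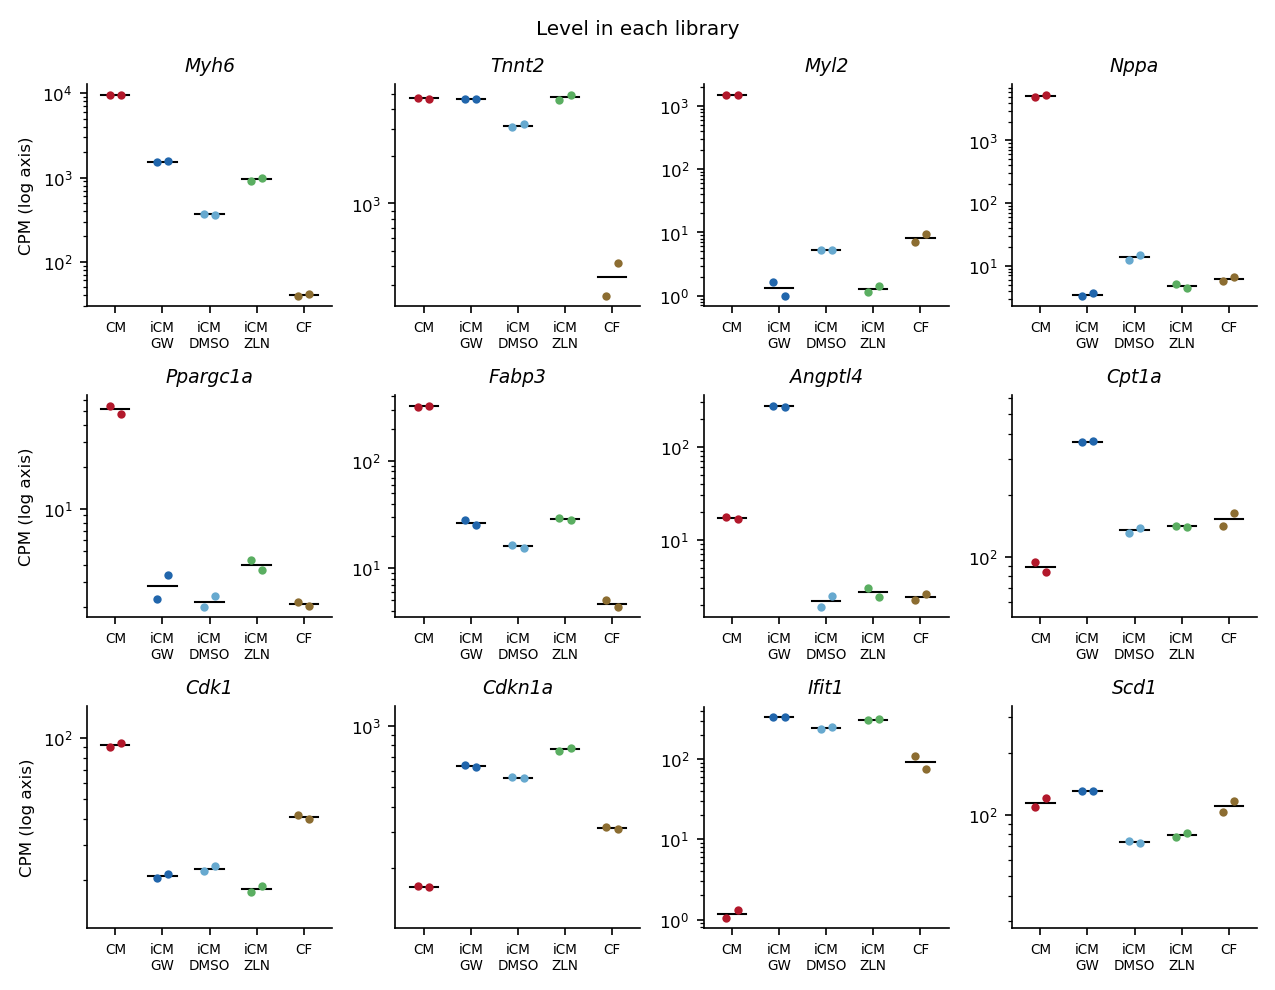
Level of 12 genes in each library, as CPM on a log axis, with 1 point per library and a bar at the group mean (GW and ZLN on the axes stand for GW501516 and ZLN005). Tnnt2 and Scd1 are at nearly the same level in CM and GW501516 iCM, Myl2 and Nppa are below the CF level in GW501516 iCM, Angptl4 is highest in GW501516 iCM, and Ifit1 is lowest in CM.

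Ratios between alternative isoforms were also taken within each library. They are log2 ratios of counts, not per transcript length, so a ratio is compared between libraries and not with 0, and with 2 libraries in each group no test of them can reach an exact p of 0.05. The log2 ratio of the adult Myh6 to the fetal Myh7 was 5.88 and 5.86 in the CM libraries and 7.59 and 7.76 in the GW501516 libraries, so it was 1.81 lower in CM by group means. The ratio of the cardiac Tnni3 to the slow skeletal Tnni1 was 0.97 and 1.51 in CM and 5.60 and 5.61 in GW501516 iCM. By these 2 ratios, the GW501516 libraries stood further to the adult isoform than the CM libraries did. The same held for the DMSO libraries (6.39 and 6.54, then 4.17 and 3.85) and the ZLN005 libraries (7.75 and 7.88, then 5.20 and 5.53). CF were below CM in the first ratio (4.53 and 4.59) but above CM in the second (1.67 and 1.79). The Tnni3 level itself was 8.21-fold higher in CM (629 and 799.8 against 87.4 and 86.6 CPM), and Tnni1 was further apart. The ventricular to atrial ratio of Myl2 to Myl7 was −0.70 and −0.75 in CM and −9.97 and −10.64 in GW501516 iCM, and that of Myl3 to Myl4 was −1.20 and −1.17 against −12.95 and −13.03. The GW501516 libraries were lower in both, and the DMSO libraries lay between, with −7.28 and −7.37 for the first ratio and −9.98 and −9.89 for the second. The ZLN005 libraries were near the GW501516 libraries, with −10.38 and −10.03, then −12.34 and −13.50. CF were above CM in the first ratio (0.41 and 1.09) and below CM in the second (−2.55 and −2.50). Myl7 itself was higher in CM, so the gap in the first ratio lies in the level of Myl2.

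The ratio of Cox7a1, the muscle form of a cytochrome oxidase subunit, to Cox7a2, the common form, was −2.33 and −2.42 in CM and −4.44 and −4.55 in GW501516 iCM. For the muscle form Cox8b over Cox8a it was −3.13 and −2.996 against −7.66 and −7.40, and for the muscle creatine kinase Ckm over the brain form Ckb it was 0.58 and 0.48 against −12.67 and −10.34. All 3 stood higher in both CM libraries. With 2 counts of Ckm in the GW501516 libraries together, its ratio there depends on the added 0.5 count. The oxidative lactate dehydrogenase Ldhb over Ldha was −2.66 and −2.59 in CM and −4.14 and −4.06 in GW501516 iCM, the muscle enolase Eno3 over Eno1 −0.44 and −0.34 against −1.69 and −1.74, and the muscle phosphofructokinase Pfkm over the liver form Pfkl −0.16 and −0.086 against −1.001 and −1.004. These 3 also favoured the muscle or heart form in CM. The insulin-dependent glucose carrier Slc2a4 over the basal carrier Slc2a1 was the exception, with −0.87 and −0.57 in CM and −0.56 and −0.55 in GW501516 iCM, a group difference of −0.17 that is smaller than the gap between the CM libraries.

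**Figure D3:**
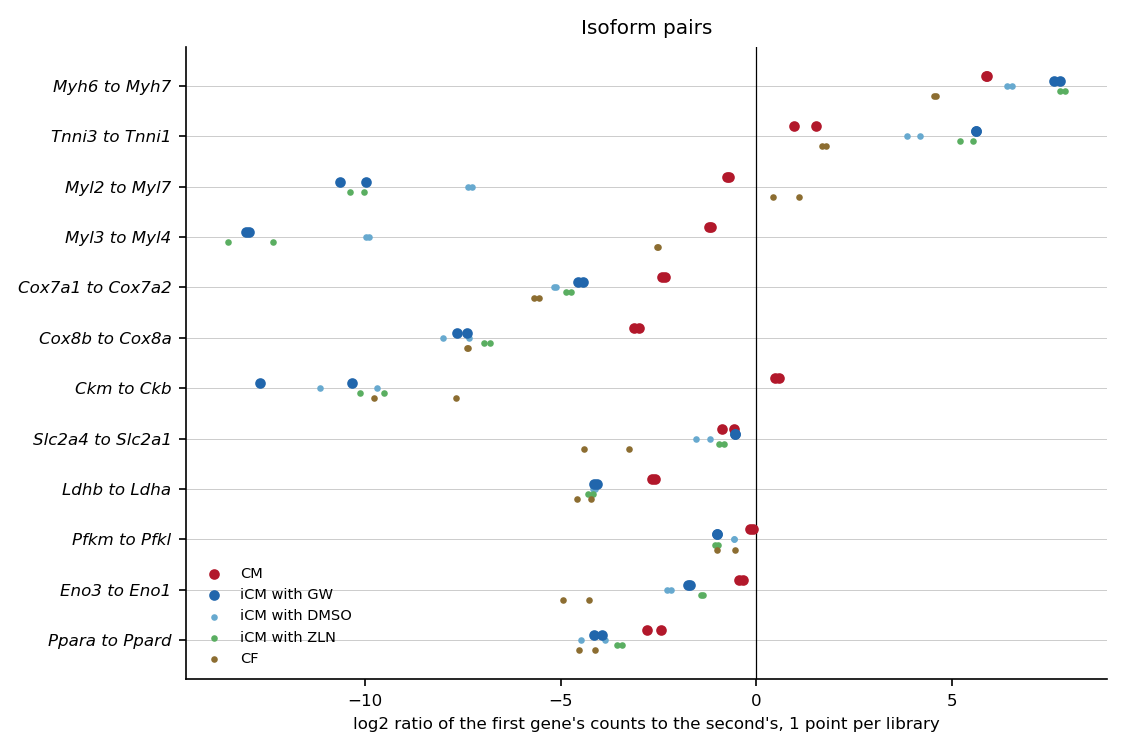
Log2 ratio of the counts of 2 genes in each library (horizontal axis) for 12 isoform pairs (rows), 1 point per library. Large points are CM (red) and GW501516 iCM (blue), small points the reference groups (GW and ZLN stand for GW501516 and ZLN005). Gaps between CM and GW501516 iCM are wide in Myl3 to Myl4 and Myl2 to Myl7, with group differences of 11.81 and 9.59, and in Ckm to Ckb, where the GW501516 points depend on the added 0.5 count.

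Genes that move calcium gave 20 higher and 4 lower of 26 (33.7% and 33.5% of all genes), with 2 not called. Their median log2 change was 1.00. Ryr2, the release channel of the sarcoplasmic reticulum, was at 1024 and 931 CPM in CM and 421 and 435 CPM in GW501516 iCM (2.28-fold). Atp2a2, the pump SERCA2 that returns calcium to the store, was at 4644 and 4685 against 2601 and 2645 CPM, 1.78-fold higher in CM with an interval inside 2-fold. Casq2, the calcium buffer of the cardiac store, was not called with the spread shared over all 5 groups (919 and 926 against 1052 and 1013 CPM, change −0.16, SE 0.17, adjusted p = 0.41). Its groups did not overlap, and without CF in the fit Casq2 was called lower in CM (adjusted p = 2.3e-05). Atp2a2 and Casq2 were thus within 2-fold, and the following members were not. Srl, the luminal protein sarcalumenin, was at 941 and 925 CPM in CM and 119 and 122 CPM in GW501516 iCM. Bves, a membrane protein that binds cyclic AMP, was at 216 and 218 against 7.51 and 9.23 CPM, and Slc8a1, the sodium-calcium exchanger of the cell surface, at 1260.2 and 1171 against 319 and 330.1 CPM. CM were higher in each without overlap, by 7.76-, 25.97- and 3.74-fold. Casq1, the skeletal relative of Casq2, was higher in CM by 4.63 on the log2 scale (126 and 129 against 5.41 and 4.92 CPM). Of the 4 members lower in CM, Jph1, a junctophilin best known from skeletal muscle, was at 2.01 and 1.43 against 3.33 and 4.22 CPM and Itpr2, an inositol trisphosphate receptor, at 28.4 and 25.0 against 51.2 and 50.1 CPM.

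Ion channel genes were among the lists furthest apart, with 27 of 35 higher and 5 lower (33.7% and 33.5% of all genes). Their median was 2.04, and 22 were more than 2-fold higher with their whole interval (9.31% of all genes). Cacnb2, the beta subunit of the L-type calcium channel, was at 138 and 129.7 CPM in CM and 3.62 and 3.49 CPM in GW501516 iCM. Kcnj3, a subunit of the acetylcholine-gated potassium channel, was at 104 and 105 against 1.64 and 2.16 CPM. CM were higher in both without overlap, by 37.6- and 54.9-fold (adjusted p at most 7.5e-11). Kcnj5, the partner subunit of Kcnj3, was 1.21-fold lower in CM instead (157 and 149.8 against 183 and 189 CPM), though this call was lost when any of the 4 libraries was left out (adjusted p from 0.0564 to 0.123). Abcc8, the SUR1 subunit of channels closed by ATP, was at 40.4 and 40.6 CPM in CM and below 1 CPM in both GW501516 libraries (0.338 and 0.502 CPM). Cacna2d1, an auxiliary subunit of the calcium channel, was not called (214 and 206 against 191 and 199 CPM, interval −0.052 to 0.26), but was called higher in CM without CF in the fit (adjusted p = 0.014). Kcna5, an atrial potassium channel, was lower in CM (0.509 and 0.256 against 1.81 and 1.58 CPM, adjusted p = 0.00027).

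The intercalated disc joins cardiomyocytes end to end. Of its 19 tested genes 14 were higher in CM and 2 lower (33.7% and 33.5% of all genes), with a median of 1.13. Gja1, the gap junction protein connexin 43, was at 1150.2 and 1146 CPM in CM and 286 and 284 CPM in GW501516 iCM (log2 change 2.01, SE 0.058, adjusted p = 6.2e-10). Pkp2, a desmosome plakophilin, was at 311 and 291 against 47.5 and 54.5 CPM, and Ank3, the adaptor ankyrin G that holds sodium channels at the membrane, at 203 and 194 against 17.8 and 16.3 CPM. Both CM libraries were above both GW501516 libraries in each of the 3 genes. The adhesion core lay closer. Cdh2, N-cadherin, was at 852 and 826 against 567 and 557 CPM and Ctnna1, alpha-catenin, at 1013 and 1011 against 859 and 856 CPM, 1.49- and 1.18-fold higher in CM. The members lower in CM were Jup, plakoglobin (224 and 213 against 309 and 309 CPM), and Gja3, connexin 46 (34.2 and 34.7 against 50.1 and 51.3 CPM).

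Of 19 receptors and their signalling enzymes 8 were higher and 7 lower in CM, shares near those of all genes (33.7% and 33.5%). Their median of −0.085 turned to 0.124 with a filter of 1 CPM in 2 libraries. Chrm2, the muscarinic receptor through which the vagus nerve slows the heart, was at 198 and 200.2 CPM in CM and 33.2 and 36.4 CPM in GW501516 iCM. Adora1, the adenosine receptor of the heart, was at 46.3 and 44.6 against 2.51 and 2.86 CPM. These 2 receptors were 5.72- and 16.9-fold higher in CM. Ednrb, the endothelin B receptor, went the other way and was at 5.26 and 4.99 CPM in CM, 169 and 164 CPM in GW501516 iCM, 18.4 and 18.9 CPM in DMSO iCM and 56.4 and 19.6 CPM in CF (log2 change −5.02, SE 0.42, adjusted p = 1.6e-06). The GW501516 libraries were therefore above every other group shown. Rxfp1, the relaxin receptor, was at 36.8 and 36.2 CPM in CM and 178 and 191 CPM in GW501516 iCM, and Npr2, the receptor of C-type natriuretic peptide, at 33.6 and 36.0 against 126 and 130.05 CPM. Both were lower in CM without overlap, by 5.05- and 3.68-fold. Pde3a, a phosphodiesterase of cyclic AMP, was not called (188 and 182 against 195 and 198 CPM, adjusted p = 0.34), but was called lower in CM without CF in the fit (adjusted p = 0.04).

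Of 33 cardiac transcription factors and natriuretic peptides, 23 were higher in CM and 6 lower (33.7% and 33.5% of all genes), with a median of 1.41. Both peptides stood below 4 CPM in GW501516 iCM. Nppa, atrial natriuretic peptide, was at 4987 and 5402 CPM in CM, 3.26 and 3.64 CPM in GW501516 iCM, 12.3 and 14.8 CPM in DMSO iCM and 5.65 and 6.65 CPM in CF. Nppb, B-type natriuretic peptide, was at 919 and 956 CPM in CM and 0.677 and 0.602 CPM in GW501516 iCM. The CM libraries stood far above all others in both, by 10.56 (SE 0.14, adjusted p = 6.2e-12) and 10.51 (SE 0.11, adjusted p = 1.5e-12) against GW501516 iCM. Nkx2-5, a homeobox factor that marks the cardiac lineage and activates Nppa, was at 31 and 28.4 CPM in CM and 0.193 and 0.0502 CPM in GW501516 iCM (log2 change 7.89, SE 0.48, adjusted p = 1.5e-07). Irx4, a homeobox factor of the ventricle chosen here after its values were seen, had 585 counts in the CM libraries and none in the GW501516 libraries, so it was at least 188-fold higher in CM by a floor of 3 counts over the group. Myocd, the myocardin coactivator of serum response factor, was at 138 and 124 CPM in CM and 6.96 and 7.43 CPM in GW501516 iCM (18.3-fold). Tbx20 and Mef2d, 2 factors of the embryonic heart, had intervals inside 2-fold, Tbx20 lower in CM (1146 and 1119 against 1452 and 1488 CPM) and Mef2d higher (173 and 158 against 129.8 and 138 CPM). Tbx18, a factor of the epicardium and sinus horn, was 3.57-fold lower in CM (64.6 and 69.7 against 238 and 240.2 CPM).

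The 3 reprogramming factors were lower in CM, and their counts do not separate the transgene from the endogenous gene. Mef2c was at 163 and 156 CPM in CM and 424 and 459 CPM in GW501516 iCM. Gata4 was at 208 and 198 against 444 and 449 CPM, and Tbx5 at 106 and 103 against 509 and 536 CPM. The groups did not overlap, and GW501516 iCM were 2.77-, 2.20- and 4.997-fold higher in the order given (adjusted p at most 3.4e-08). The study's title gene Scd1, which makes monounsaturated fatty acids, was at 109 and 120.1 CPM in CM and 130.1 and 130.02 CPM in GW501516 iCM. The groups lay close without overlap (log2 change −0.18, SE 0.065, adjusted p = 0.029), and the call was lost without CM replicate 1 (adjusted p = 0.216), GW501516 replicate 1 (0.0975) or GW501516 replicate 2 (0.0954). Ppargc1a was at 54.8 and 48.0 CPM in CM and 2.27 and 3.39 CPM in GW501516 iCM, where it stood near its level in CF (2.17 and 2.03 CPM), so CM were 18.2-fold higher (log2 change 4.18, SE 0.18, adjusted p = 1.1e-08). Ppard itself was slightly lower in CM (29.3 and 28.7 against 34.4 and 36.6 CPM, change −0.29, SE 0.062, adjusted p = 0.0017).

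Around Ppargc1a, 14 of 20 genes of the PGC1 and estrogen-related receptor axis were higher in CM and 0 lower (33.7% and 33.5% of all genes). Their median was 0.45, and the other 6 were not called. The receptor Esrrg, which drives mitochondrial genes with PGC1α, was at 27.5 and 27.9 CPM in CM and 4.35 and 4.44 CPM in GW501516 iCM. Prkaa2, the muscle catalytic subunit of the energy sensor AMPK, was at 253 and 237 against 50.8 and 52.3 CPM, and Pprc1, a relative of PGC1α that responds to growth, at 110.2 and 109.9 against 50.6 and 49.0 CPM. CM were higher in all 3 without overlap, by 6.30-, 4.75- and 2.21-fold. The corepressor Ncor1 was level (156 and 139 against 143 and 153 CPM, interval −0.14 to 0.13), and Gabpa, a factor that drives nuclear mitochondrial genes, was 1.30-fold higher in CM.

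Most genes of the respiratory chain were higher in CM, and 0 of those tested were lower (33.7% and 33.5% of all genes). Of 36 tested nuclear subunits of complex I, 32 were higher and 0 lower, with a median of 0.70. Intervals lay inside 2-fold for 25 of the 36 (50.3% of all genes). Of 27 genes of complexes II to IV, 26 were higher and 0 lower (median 1.03). All 16 nuclear subunits of ATP synthase tested were higher (median 0.91), and so were all 13 mitochondrially encoded genes (median 1.21). The last group took 5.47% and 5.53% of the counts in CM and 2.57% and 2.58% in GW501516 iCM. Their counts may include reads from nuclear copies, which are near-identical. Ndufa9, a complex I subunit, was at 138 and 140.1 CPM in CM and 61.03 and 63.2 CPM in GW501516 iCM. Cycs, cytochrome c, was at 368 and 390.1 against 117 and 113 CPM. Atp5b, the catalytic beta subunit of ATP synthase, was at 1983 and 2021 against 851 and 829 CPM. CM were 2.23-, 3.29- and 2.38-fold higher in these genes, with no overlap between groups. ND1, a complex I subunit read from the mitochondrial genome, was at 7388 and 7546 against 3036 and 2989 CPM (2.48-fold), and COX2, a core of complex IV, at 132 and 138 against 51.2 and 47.9 CPM (2.72-fold). Uqcrfs1, the Rieske protein of complex III, differed by 2.48-fold, Cyc1, cytochrome c1, by 2.84-fold and Cox7b, a complex IV subunit, by 3.15-fold. The muscle forms were further apart, and Cox7a1 was at 33.2 and 34.7 CPM in CM and 4.08 and 3.69 CPM in GW501516 iCM and Cox8b at 12.9 and 14.7 against 0.580 and 0.677 CPM, while the common form Cox8a was not called (113 and 117 against 119.6 and 116 CPM).

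The citric acid cycle and pyruvate entry were mostly higher in CM, with a median of 0.91. Of 34 genes 28 were higher and 2 lower (33.7% and 33.5% of all genes). Idh2, the mitochondrial NADP isocitrate dehydrogenase, was at 165 and 178 CPM in CM and 28.5 and 28.0 CPM in GW501516 iCM. Mdh2, malate dehydrogenase, was at 378 and 386 against 164 and 154 CPM, and Got1, the cytosolic transaminase of the malate-aspartate shuttle, at 180.3 and 181 against 67.4 and 69.4 CPM. These were 6.08-, 2.40- and 2.64-fold higher in CM without overlap, while Sdha, the flavoprotein of succinate dehydrogenase, differed by 1.67-fold and Dld, a shared subunit of the dehydrogenase complexes, by 1.603-fold. The members lower in CM regulate pyruvate dehydrogenase. They were the kinase Pdk4, described with the PPAR targets, and the phosphatase Pdp2 (11.7 and 11.9 against 16.5 and 13.3 CPM), whose call was lost without CM replicate 1, CM replicate 2 or GW501516 replicate 1 (adjusted p from 0.0556 to 0.186).

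Among 18 genes of the phosphagen system and of oxygen and nucleotide shuttles, 13 were higher in CM and 1 lower (33.7% and 33.5% of all genes). Their median was 0.54. Ckm, muscle creatine kinase, had 12327 counts in the CM libraries and 2 in the GW501516 libraries, a ratio of 5938 after scaling with a 95% counting interval from 1644 to 49041. Its level was 148 and 145 CPM in CM and 0 and 0.0502 CPM in GW501516 iCM. Mb, the oxygen carrier myoglobin, was at 207 and 227 against 33.2 and 28.5 CPM (7.02-fold). Slc25a4 and Slc25a5, which exchange ADP and ATP across the inner mitochondrial membrane, were 1.63- and 2.40-fold higher in CM. The member lower in CM was Ckmt1, the ubiquitous mitochondrial creatine kinase (0.310 and 0.614 against 2.08 and 1.63 CPM, adjusted p = 0.0045). In mitochondrial dynamics and biogenesis 18 of 31 were higher and 6 lower (33.7% and 33.5% of all genes). The median was 0.38, and 23 had intervals inside 2-fold (50.3% of all genes). Mfn2, a mitofusin of outer membranes, was at 437 and 443 CPM in CM and 154 and 156 CPM in GW501516 iCM (2.84-fold). Slc8b1, the mitochondrial sodium-calcium exchanger (7.78 and 6.80 against 27.0 and 25.4 CPM), and Pink1, a kinase of mitophagy (44.8 and 46.0 against 76.0 and 76.5 CPM), were lower in CM.

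Of 31 genes of fatty acid oxidation 17 were higher and 10 lower in CM (33.7% and 33.5% of all genes). The median was 0.32, and 25 had intervals inside 2-fold (50.3% of all genes). Acadl, the long-chain acyl-CoA dehydrogenase, was at 372 and 377 CPM in CM, 269.9 and 259 CPM in GW501516 iCM and 83.0 and 82.9 CPM in DMSO iCM. Hadha, a subunit of the trifunctional protein, was at 302 and 307 against 222 and 218 and, in DMSO iCM, 174 and 173 CPM. In both genes the GW501516 libraries lay between DMSO iCM and CM, 1.42- and 1.38-fold below CM. Echs1, the short-chain enoyl-CoA hydratase, was 2.11-fold higher in CM, whereas Lpl, lipoprotein lipase (473 and 465 against 670.02 and 686 CPM), and Mlycd, malonyl-CoA decarboxylase (13.0 and 12.9 against 21.1 and 20.8 CPM), were lower in CM. Fabp3 and Cd36 were further apart than the genes above. Fabp3, the fatty acid-binding protein of heart, was at 317 and 329 CPM in CM, 28.0 and 25.1 CPM in GW501516 iCM and 16.5 and 15.5 CPM in DMSO iCM. Cd36, the fatty acid translocase, was at 112 and 109 against 14.7 and 16.2 and, in DMSO iCM, 17.8 and 19.97 CPM. CM were above both iCM groups, by 12.2-fold (adjusted p = 4.1e-11) and 7.14-fold (adjusted p = 2.1e-07) against GW501516 iCM.

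Of 36 PPAR receptors and targets 19 were lower in CM and 11 higher (33.5% and 33.7% of all genes). Their median was −0.24, and 16 had intervals inside 2-fold (50.3% of all genes). The members ranged from −4.53 to the 3.60 of Fabp3, given above with fatty acid oxidation, and the list took 0.256% and 0.259% of counts in CM against 0.351% and 0.348% in GW501516 iCM. Angptl4, a secreted inhibitor of lipoprotein lipase, was at 17.5 and 16.7 CPM in CM, 276 and 269 CPM in GW501516 iCM, 1.88 and 2.46 CPM in DMSO iCM and 2.27 and 2.63 CPM in CF. The GW501516 libraries were highest and the CM libraries above DMSO iCM and CF. Pdk4, the kinase that shuts pyruvate out of the citric acid cycle, was at 67.3 and 66.3 CPM in CM, 350.04 and 348 CPM in GW501516 iCM and 30.5 and 30.97 CPM in DMSO iCM. Cpt1a, the liver form of the enzyme that passes fatty acids into mitochondria, was at 93.9 and 84.0 against 364 and 369 and, in DMSO iCM, 131 and 137 CPM. The GW501516 libraries again stood above the others in both. CM minus GW501516 iCM gave −3.99, −2.38 and −2.04 for the 3 genes (SE 0.091, 0.047 and 0.072, adjusted p at most 2.5e-09). GW501516 minus DMSO, which shares the GW501516 libraries, gave 6.98, 3.503 and 1.45. Vnn1, a pantetheinase, was at 1.55 and 1.36 CPM in CM, 25.7 and 24.7 CPM in GW501516 iCM and 21.6 and 21.8 CPM in DMSO iCM (17.3-fold lower in CM). Ppara, the receptor that prevails in the adult heart, was higher in CM (5.37 and 4.09 against 2.22 and 2.03 CPM, log2 change 1.15, SE 0.24, adjusted p = 0.0014).

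**Figure D4:**
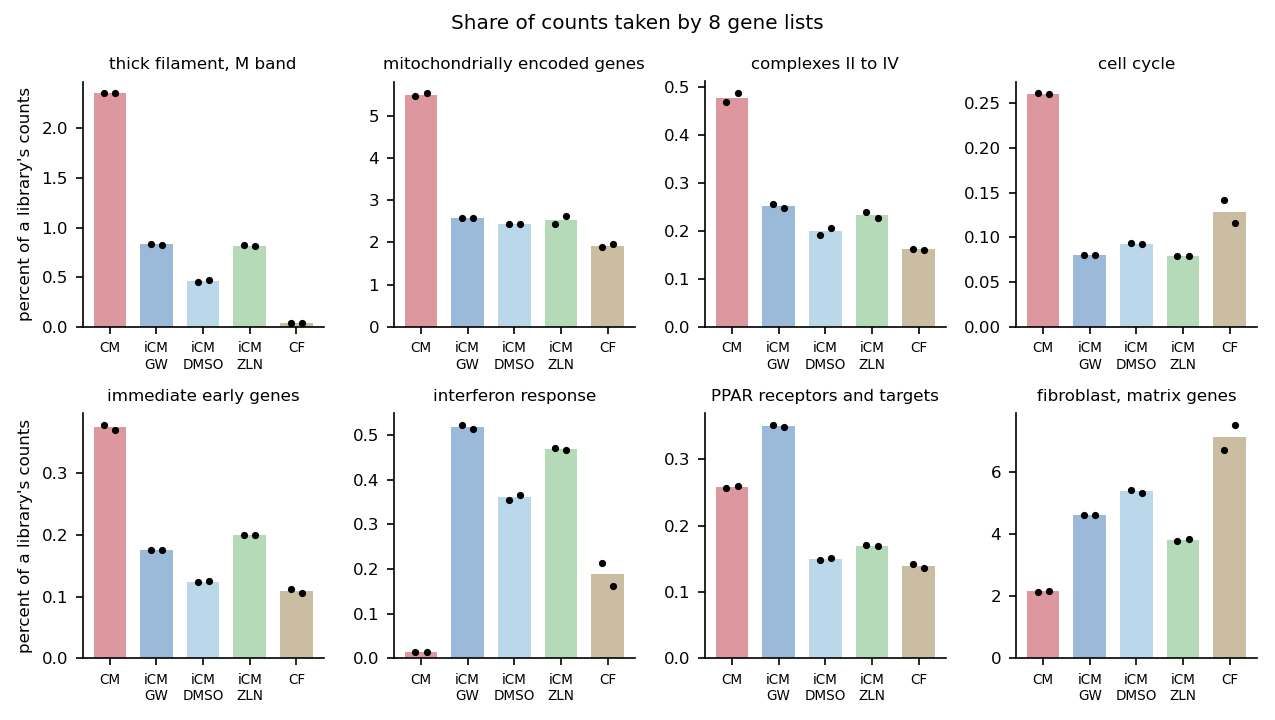
Percent of a library's counts (vertical axes, from 0) taken by 8 gene lists, with a bar at the group mean and 1 point per library (GW and ZLN on the axes stand for GW501516 and ZLN005). Sarcomere, mitochondrial, cell cycle and immediate early lists are highest in CM, the PPAR list is highest in GW501516 iCM, and the interferon list is at 0.0143% and 0.0152% in CM against 0.523% and 0.514% in GW501516 iCM.

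Glycolysis was higher in CM as well, with a median of 0.91. Of 27 genes 22 were higher and 0 lower (33.7% and 33.5% of all genes). Ldhb was at 169 and 178 CPM in CM and 28.3 and 29.1 CPM in GW501516 iCM, and Ldha, the form that favours lactate, at 1072 and 1073 against 499.99 and 486 CPM. Eno3 was at 411 and 433 against 114 and 110.05 CPM and Pfkp, the platelet form of phosphofructokinase, at 421 and 409.7 against 149.7 and 153 CPM. CM lay above GW501516 iCM without overlap in all 4 genes, 6.04-, 2.17-, 3.78- and 2.75-fold. Pkm, pyruvate kinase, and Aldoa, aldolase A, were higher by 1.37- and 1.63-fold with intervals inside 2-fold. Of 18 glycogen genes 8 were higher and 7 lower, shares near those of all genes (33.7% and 33.5%). Pygm, the phosphorylase of muscle, was at 248 and 248 CPM in CM and 43.7 and 41.8 CPM in GW501516 iCM, and Ppp1r3a, the muscle subunit that brings protein phosphatase 1 to glycogen, at 49.2 and 46.7 against 5.68 and 5.70 CPM. Both were higher in CM, by 5.80- and 8.44-fold. Ppp1r3c, another such targeting subunit, was lower in CM (56.5 and 53.3 against 219.9 and 231 CPM, and 2.83 and 2.59 CPM in CF), and so was Gaa, the lysosomal glucosidase (100.5 and 97.4 against 196 and 201 CPM).

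Of 23 genes of fatty acid synthesis and desaturation 10 were higher and 10 lower in CM (33.7% and 33.5% of all genes). Gpam, the mitochondrial acyltransferase that starts triglyceride synthesis, was at 50.8 and 49.7 CPM in CM, 295 and 304 CPM in GW501516 iCM and 193 and 185 CPM in DMSO iCM (log2 change −2.58, SE 0.053, adjusted p = 6.2e-11). Both iCM groups were above CM. Elovl6, an elongase of palmitate, was 2.13-fold higher in CM (32.1 and 31.7 against 15.0 and 14.9 CPM), and Scd4, a desaturase expressed in heart in mice, was at 15.7 and 14.5 CPM in CM and 0.193 and 0.527 CPM in GW501516 iCM. Scd2, a further desaturase, lay within 2-fold (459 and 478 against 331 and 337 CPM). Cholesterol synthesis differed little, with 8 of 23 lower, 4 higher and 17 intervals inside 2-fold (33.5%, 33.7% and 50.3% of all genes). Some of the higher calls were lost without CM replicate 2 or GW501516 replicate 2. Hsd17b7 and Sc5d, enzymes of the later steps, were 1.83-fold (27.7 and 27.5 against 48.6 and 52.3 CPM) and 1.61-fold (51.5 and 52.6 against 84.4 and 82.8 CPM) lower in CM. Srebf2, the transcription factor that activates the pathway, was 1.21-fold higher (142 and 139 against 112 and 120.1 CPM).

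Interferon response genes formed the list furthest from 0. All 38 tested members were lower in CM and had their whole interval beyond 2-fold (33.5% and 9.47% of all genes). Their median log2 change was −6.24. Together they took 0.0143% and 0.0152% of counts in CM, 0.523% and 0.514% in GW501516 iCM, 0.355% and 0.365% in DMSO iCM and 0.214% and 0.162% in CF. Fibroblasts without the factors thus also stood above CM. Markers of macrophages and leukocytes took 0.0059% and 0.00585% of counts in CM, 0.0244% and 0.0248% in GW501516 iCM and 0.457% and 0.076% in CF. In 22 of 26 of them both CM libraries were below both GW501516 libraries (42.8% of all genes). Of the 26, 13 were called lower in CM (33.5% of all genes). The part of these markers in the interferon values was not tested. The promoters of 3 of these genes are shown because they carry the interferon-stimulated response element (ISRE) that transcription factors of the interferon pathway bind. The letters searched were GAAA, any 2 bases (NN) and GAAA again, or TTTC, NN and TTTC for the same element on the other strand, in RefSeq windows of 300 bases (250 before the start of the gene and 50 after, build GRCm38.p6). Capitals mark each match, and neighbouring matches in Isg15 overlap. The 3 genes were chosen after their values were seen, as textbook targets. Ifit1, which binds foreign RNA caps, lies on the plus strand (chr19:34640639-34640938), Isg15, a ubiquitin-like modifier, on the minus strand (chr4:156200769-156201068), and Rsad2, the antiviral enzyme viperin, on the minus strand (chr12:26456403-26456702).
Ifit1: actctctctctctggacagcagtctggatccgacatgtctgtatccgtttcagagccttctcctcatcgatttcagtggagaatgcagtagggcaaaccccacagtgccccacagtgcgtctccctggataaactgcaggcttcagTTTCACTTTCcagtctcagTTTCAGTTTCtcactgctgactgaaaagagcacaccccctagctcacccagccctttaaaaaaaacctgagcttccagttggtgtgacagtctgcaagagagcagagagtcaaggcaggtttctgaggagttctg
Isg15: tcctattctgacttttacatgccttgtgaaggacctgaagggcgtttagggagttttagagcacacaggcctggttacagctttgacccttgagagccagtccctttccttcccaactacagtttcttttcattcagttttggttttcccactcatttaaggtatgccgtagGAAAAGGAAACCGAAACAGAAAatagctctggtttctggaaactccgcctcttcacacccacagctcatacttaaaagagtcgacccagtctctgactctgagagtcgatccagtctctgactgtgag
Rsad2: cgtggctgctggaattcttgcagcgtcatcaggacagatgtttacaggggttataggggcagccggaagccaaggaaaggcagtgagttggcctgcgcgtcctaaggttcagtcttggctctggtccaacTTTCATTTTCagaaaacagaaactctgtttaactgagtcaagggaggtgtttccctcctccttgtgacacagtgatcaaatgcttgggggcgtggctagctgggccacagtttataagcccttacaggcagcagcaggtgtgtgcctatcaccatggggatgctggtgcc

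Ifit1 held 2 matches, Isg15 3 and Rsad2 1. Of the 26 interferon genes that had a promoter window, 12 held the element (46.2%), against 461 of 12117 tested genes (3.8%). A match is a description of the letters and does not show binding. Ifit1 was at 1.04 and 1.30 CPM in CM, 333 and 337 CPM in GW501516 iCM, 238 and 251 CPM in DMSO iCM and 108 and 75.6 CPM in CF. Isg15 was at 0.752 and 0.972 CPM in CM, 218 and 211 CPM in GW501516 iCM and 66.6 and 46.8 CPM in CF, and Rsad2 at 0.752 and 0.486 against 146 and 143 and, in CF, 14.5 and 11.1 CPM. Both CM libraries were at or near 1 CPM in all 3 genes and lay below every other library. CM minus GW501516 iCM was −8.17 (SE 0.20, adjusted p = 1.9e-10), −7.97 (SE 0.21, adjusted p = 3e-10) and −7.84 (SE 0.16, adjusted p = 6.2e-11). Oas2, a sensor of double-stranded RNA, had 0 counts in the CM libraries and 11288 in the GW501516 libraries, so it was at least 3905-fold lower in CM. Mx1, a GTPase active against influenza virus, was at least 849-fold lower. Oas1g was at least 810-fold lower, and its counts and those of its near-identical relative Oas1a (0.221 and 0 against 81.2 and 76.3 CPM) may be split uncertainly. Gbp3 and Gbp2, guanylate-binding proteins that interferon gamma also raises, were at 0.884 and 0.588 against 160.2 and 155 CPM for Gbp3 and 5.64 and 6.497 against 121 and 119 CPM for Gbp2. Bst2, the surface protein tetherin that holds back budding viruses, was at 11.4 and 11.6 CPM in CM and 367 and 343 CPM in GW501516 iCM, and Usp18, which removes Isg15 from proteins, at 0.111 and 0.0512 against 41.1 and 43.4 CPM. The groups did not overlap in any of these genes.

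Cell cycle genes were mostly higher in CM. Of 38 tested genes 36 were higher in CM and 2 lower (33.7% and 33.5% of all genes), with a median of 2.24. With their whole interval, 30 were more than 2-fold higher (9.31% of all genes). The list took 0.261% and 0.26% of counts in CM, 0.08% and 0.0798% in GW501516 iCM and 0.142% and 0.116% in CF. Which cells of the CM culture held these transcripts was not tested, and fibroblast markers were present there too. The promoters of Cdk1 and Cdc20 are shown because they carry the cell cycle genes homology region (CHR), which complexes that time gene expression to cell division bind. The letters searched were TTTGAA, or TTCAAA on the other strand. Cdk1, the kinase that starts mitosis, lies on the minus strand (chr10:69352863-69353162), and Cdc20, an activator of the anaphase-promoting complex picked after its values were seen, on the minus strand too (chr4:118437294-118437593). Capitals mark each match in the same RefSeq windows of GRCm38.p6.
Cdk1: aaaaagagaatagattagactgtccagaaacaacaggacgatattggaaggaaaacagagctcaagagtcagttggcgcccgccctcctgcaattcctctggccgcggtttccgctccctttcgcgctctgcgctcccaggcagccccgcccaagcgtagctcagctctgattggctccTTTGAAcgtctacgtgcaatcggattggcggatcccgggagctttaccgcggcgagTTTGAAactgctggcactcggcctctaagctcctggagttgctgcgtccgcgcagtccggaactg
Cdc20: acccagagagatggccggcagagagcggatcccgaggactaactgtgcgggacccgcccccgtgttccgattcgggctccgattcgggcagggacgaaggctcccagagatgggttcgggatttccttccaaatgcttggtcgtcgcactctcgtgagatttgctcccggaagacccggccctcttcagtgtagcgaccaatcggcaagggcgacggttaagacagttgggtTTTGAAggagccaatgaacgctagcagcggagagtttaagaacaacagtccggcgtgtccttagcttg

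Cdk1 held 2 matches and Cdc20 1. Of the 32 cell cycle genes that had a promoter window, 17 held the letters (53.1%), against 1808 of 12117 tested genes (14.9%). Cdk1 was at 90.7 and 94.6 CPM in CM, 20.5 and 21.5 CPM in GW501516 iCM, 22.2 and 23.5 CPM in DMSO iCM and 41.8 and 39.9 CPM in CF (log2 change 2.14, SE 0.063, adjusted p = 6.7e-10). Cdc20 was at 54.9 and 54.3 CPM in CM and 8.82 and 8.78 CPM in GW501516 iCM. Ccnb1, the mitotic cyclin B1, was at 89.1 and 92.6 against 11.3 and 10.7 CPM. Both CM libraries were above both GW501516 libraries, 4.41-fold for Cdk1, 6.20-fold for Cdc20 and 8.26-fold for Ccnb1. Ccna2, the cyclin A2 of replication and early mitosis, and Anln, the cytokinesis protein anillin, were higher by 6.68- and 6.21-fold. Mcm6, a subunit of the replicative helicase, differed less (119 and 120.3 against 74.4 and 75.4 CPM). The 2 members lower in CM were Cenpa, the histone of the centromere (52.1 and 52.3 against 121 and 119 CPM), and E2f1, a factor of S phase entry (15.4 and 16.8 against 21.4 and 23.0 CPM).

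Inhibitors of the cell cycle and targets of p53 were mostly lower in CM, with a median of −0.76. Of 24 genes 19 were lower and 3 higher (33.5% and 33.7% of all genes). Cdkn1a, the inhibitor p21 and the best known p53 target, was at 163 and 161 CPM in CM, 641 and 626 CPM in GW501516 iCM, 558 and 552 CPM in DMSO iCM and 316 and 312 CPM in CF. CM were lowest, 3.91-fold below GW501516 iCM (adjusted p = 1.1e-10). Fas, a death receptor, was at 10.97 and 11.5 CPM in CM and 122 and 121 CPM in GW501516 iCM (log2 change −3.43, SE 0.053, adjusted p = 1.4e-11). Ccng1, cyclin G1, was at 329.5 and 335 against 1066 and 1079 CPM, and Zmat3, an RNA-binding p53 target, at 53.1 and 54.2 against 156 and 154 CPM. The GW501516 libraries were above the CM libraries in each. Mdm2, the ligase that removes p53, was within 2-fold (154 and 164 against 246 and 239 CPM). The inhibitors Cdkn1c, p57, and Cdkn2c, p18, were higher in CM (4.27 and 4.50 against 0.966 and 0.728 CPM and 24.7 and 22.3 against 14.8 and 14.1 CPM).

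**Figure D5:**
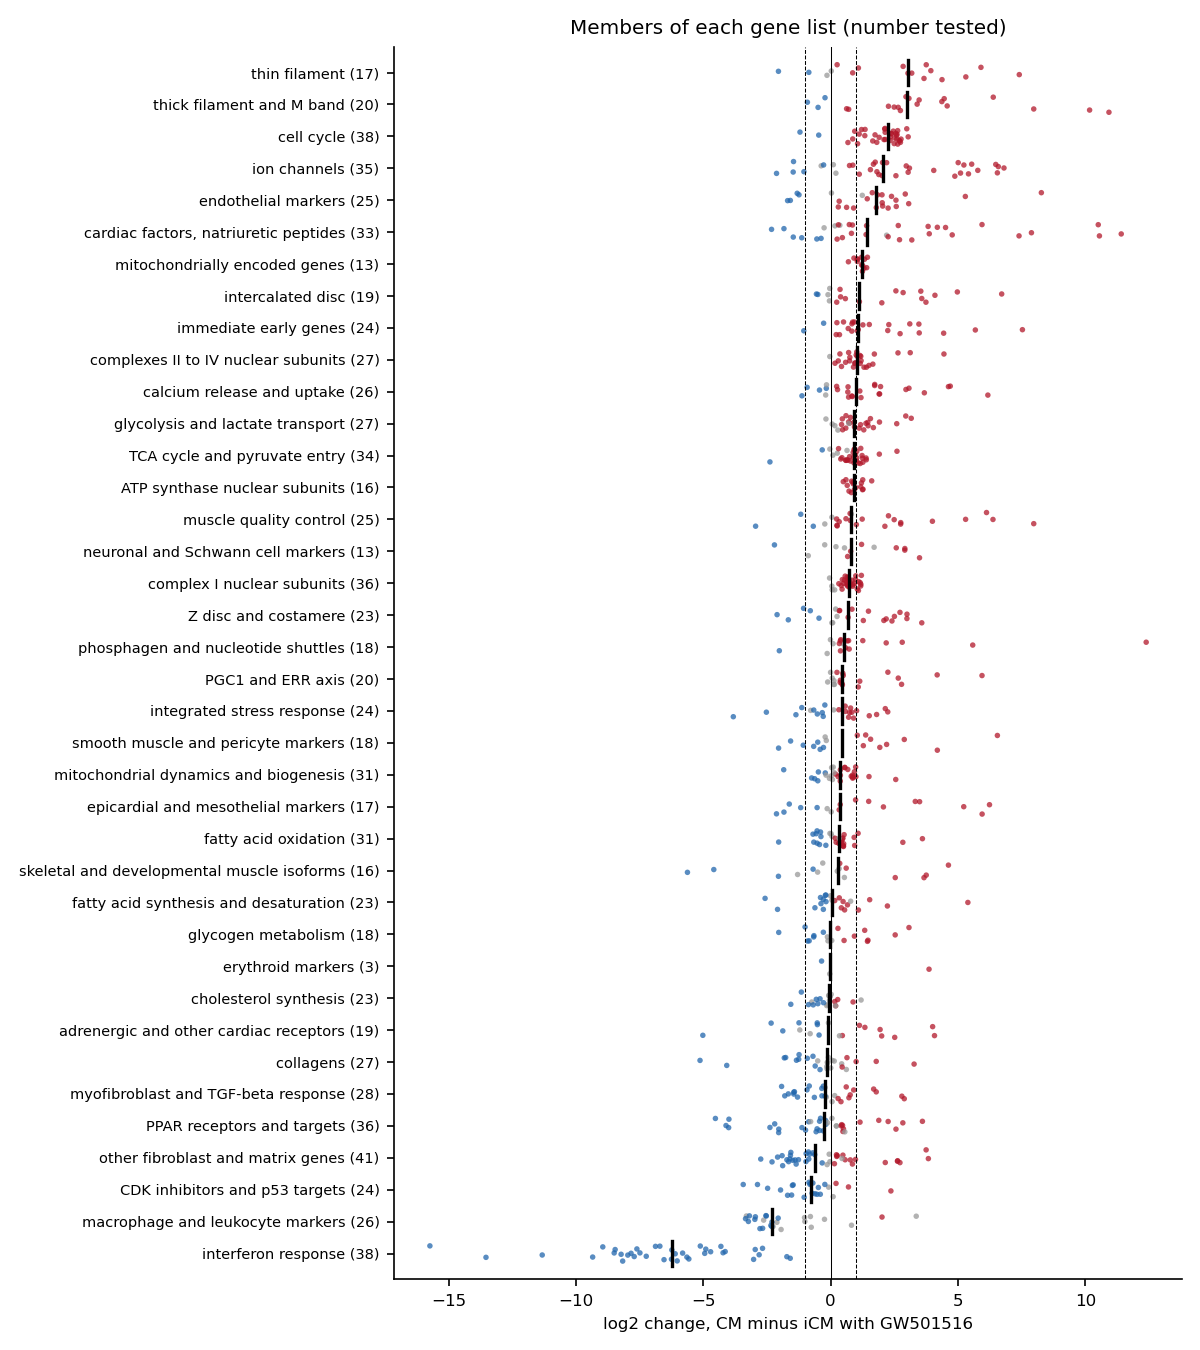
Log2 change (CM minus GW501516 iCM, horizontal axis) of each tested member of 38 gene lists (rows, ordered by median, number tested in brackets). Red points were called higher in CM, blue points lower and grey points were not called, black bars mark the median, and dashed lines mark 2-fold. Thin and thick filament genes, cell cycle genes and ion channels have medians above 2, and the interferon list stands apart with a median of −6.24. Points for genes at 0 in a group depend on the prior count of the fit.

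The fibrillar collagens of the fibroblast were at like levels in both groups. Col1a1 was at 5290.1 and 5062 CPM in CM, 5659 and 5832 CPM in GW501516 iCM and 10200.2 and 11616 CPM in CF. Col1a2 was at 3632 and 3766 against 3351 and 3361 and, in CF, 9516 and 10828 CPM. Neither was called (adjusted p = 0.098 and 0.098), both intervals were inside 2-fold, and both groups were below CF in both genes. With only CM and GW501516 iCM in the fit, with CF left out, by DESeq2 or by limma-voom, both genes were called, Col1a1 lower and Col1a2 higher in CM. Of all 27 collagens tested, both of these included, 11 were lower in CM and 5 higher (33.5% and 33.7% of all genes), so fewer were called than the 67.2% over all genes. Col4a3 and Col4a4, basement membrane chains, were at 2.43 and 2.46 against 80.0 and 91.3 CPM and at 12.8 and 14.7 against 232 and 231 CPM. Col15a1, a collagen next to basement membranes of muscle and vessels, was at 657 and 650.3 CPM in CM and 68.4 and 66.4 CPM in GW501516 iCM. Col4a3 and Col4a4 were thus 35.0- and 16.9-fold lower and Col15a1 9.70-fold higher in CM. Col11a1, a fibrillar collagen of cartilage, was 3.53-fold lower in CM.

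Of 41 other fibroblast and matrix genes 22 were lower in CM and 15 higher (33.5% and 33.7% of all genes), with a median of −0.62. They took 2.15% and 2.16% of counts in CM, 4.59% and 4.61% in GW501516 iCM and 6.71% and 7.51% in CF. Tnc, the matrix protein tenascin C of developing and injured tissue, was at 552 and 581 CPM in CM and 40.7 and 38.6 CPM in GW501516 iCM. Lum, the proteoglycan lumican, was at 116 and 121 CPM in CM, 16.7 and 19.2 CPM in GW501516 iCM and 337 and 341 CPM in CF, and Vcan, versican, at 336 and 319 against 52.9 and 53.2 and, in CF, 80.3 and 84.2 CPM. These 3 were 14.3-, 6.599- and 6.16-fold higher in CM than in GW501516 iCM. Mfap4, a microfibril protein, was at 32.1 and 31.2 CPM in CM, 159 and 154 CPM in GW501516 iCM and 1133 and 1278 CPM in CF. Loxl3, a lysyl oxidase that crosslinks collagen, was at 43.2 and 45.0 against 186 and 187 CPM. CM were 4.93- and 4.24-fold lower than GW501516 iCM. Postn, the matricellular protein periostin, and Serpinh1, the collagen chaperone, lay within 2-fold (1729 and 1766 against 1177 and 1179 CPM and 2131 and 2190.5 against 1849 and 1817 CPM). The call of Serpinh1 was lost without CM replicate 2 (adjusted p = 0.0695), GW501516 replicate 1 (0.0506) or GW501516 replicate 2 (0.0723).

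Of 28 genes of myofibroblasts and of the response to TGF-β 14 were lower in CM and 10 higher (33.5% and 33.7% of all genes). The receptor Tgfbr2 was at 64.7 and 63.6 CPM in CM and 173 and 178 CPM in GW501516 iCM. Ltbp1, which tethers latent TGF-β in the matrix, was at 132 and 131 against 415 and 416 CPM. Cnn1, the contractile protein calponin of smooth muscle, was at 132 and 134 against 17.8 and 18.1 CPM. The first 2 were 2.73- and 3.16-fold lower in CM and Cnn1 7.42-fold higher, each without overlap. Acta2, smooth muscle actin, was not called with the spread shared over all 5 groups (3318 and 3408 against 3831 and 3739.8 CPM, interval −0.46 to 0.12). The groups did not overlap, and Acta2 was called lower in CM without CF (adjusted p = 1.8e-06) or with only the compared groups (adjusted p = 2e-06). Ccn2, a matricellular target of TGF-β, was 1.53-fold higher in CM.

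Markers of other cell types differed in both directions. Of 26 macrophage and leukocyte markers 13 were lower in CM and 1 higher (33.5% and 33.7% of all genes), with a median of −2.31. The count of 13 was 21 without CF, whose libraries differ strongly in these genes, was 5 without CM replicate 1 or CM replicate 2 and 7 without GW501516 replicate 1, and was 3 by limma-voom. Lyz2, macrophage lysozyme, was at 11.1 and 11.7 CPM in CM, 64.9 and 67.7 CPM in GW501516 iCM, 413 and 443 CPM in DMSO iCM and 1685 and 329 CPM in CF. Lcp1, a leukocyte actin bundler, was at 12.4 and 10.5 CPM in CM and 64.8 and 67.7 CPM in GW501516 iCM. The GW501516 libraries were above CM and below the levels of CF in Lyz2. Endothelial markers were higher in CM in 19 of 25 and lower in 4 (33.7% and 33.5% of all genes), with a median of 1.79. Their counts summed to 0.0732% and 0.0694% in CM against 0.0904% and 0.0938% in GW501516 iCM. Eng, an accessory receptor for TGF-β that other cells express too, was lower in CM (157 and 152 CPM in CM and 493 and 506 CPM in GW501516 iCM), while Prox1 (39.9 and 34.9 against 7.10 and 8.56 CPM), a lymphatic factor, and Tek (17.5 and 16.4 against 4.95 and 3.36 CPM), the angiopoietin receptor, were higher in CM. The lymphatic markers Flt4 and Lyve1 were lower in CM instead, by −1.31 (adjusted p = 1.3e-06) and −1.58 (adjusted p = 0.018). By limma-voom the call of Lyve1 was lost (adjusted p = 0.147). It was also lost without CM replicate 1, CM replicate 2 or GW501516 replicate 2 (log2 change −1.42, −1.76 and −1.28).

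Of 18 smooth muscle and pericyte markers 9 were higher and 7 lower in CM (33.7% and 33.5% of all genes). Their median of 0.438 turned to −0.177 with a filter of 1 CPM in 2 libraries. Abcc9, the SUR2 subunit of potassium channels in muscle and pericytes, was at 33.6 and 33.7 CPM in CM and 0.314 and 0.401 CPM in GW501516 iCM, and Myh11, smooth muscle myosin, was lower in CM (14.5 and 12.8 against 55.1 and 57.7 CPM). Of 17 epicardial and mesothelial markers 10 were higher and 5 lower (33.7% and 33.5% of all genes). Krt18, a simple epithelial keratin, was at 151 and 141 CPM in CM and 2.17 and 1.68 CPM in GW501516 iCM (75.5-fold), and Msln, mesothelin, at 17.2 and 16.2 against 75.2 and 70.8 CPM (4.37-fold lower in CM). Of 13 neuronal and Schwann cell markers 7 were higher and 1 lower (33.7% and 33.5% of all genes). Mbp, myelin basic protein, was at 20.1 and 16.1 against 2.66 and 2.16 CPM. Dbh, which makes noradrenaline, was at 4.44 and 5.86 against 24.7 and 22.8 CPM. Of the 3 erythroid genes tested, Hba-a1, an alpha globin, had 34 counts in the CM libraries and 2 in the GW501516 libraries, and its call was lost without CM replicate 1 (adjusted p = 0.232) or GW501516 replicate 2 (0.131).

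Isoforms of skeletal muscle were also read. Of 16 tested 6 were higher and 4 lower in CM (33.7% and 33.5% of all genes), with a median of 0.30. Myh1 and Myh2, myosin heavy chains of fast fibres, were at 0.995 and 0.512 against 37.5 and 38.4 CPM and at 0.420 and 0.870 against 15.4 and 15.2 CPM. Both were lower in CM without overlap, by −5.62 (SE 0.28, adjusted p = 2.8e-08) and −4.59 (SE 0.24, adjusted p = 4.7e-08). Tnnt1, the slow skeletal troponin T that is also used by the fetal heart, was at 33.7 and 34.2 CPM in CM and 2.39 and 2.63 CPM in GW501516 iCM (13.5-fold higher in CM). Myl1, a light chain of fast muscle, was near level (76.6 and 78.3 against 60.4 and 60.5 CPM).

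Immediate early genes, which answer a stimulus within minutes, had a median of 1.06. In CM 22 of 24 were higher and 2 lower (33.7% and 33.5% of all genes). Egr3 was at 276 and 274 CPM in CM and 5.29 and 5.39 CPM in GW501516 iCM, and Fosb, a subunit of the AP-1 factor, at 360.3 and 324 against 1.59 and 2.11 CPM. Nr4a1, an orphan nuclear receptor, was at 321 and 320.3 against 37.8 and 36.5 CPM. CM were 51.4-, 185- and 8.62-fold higher without overlap (adjusted p at most 1.8e-10). Myc, the growth factor response gene, was 6.62-fold higher, and Btg2, an antiproliferative gene that p53 also raises, was 2.08-fold lower (130.4 and 129 against 270.5 and 269 CPM).

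Of 24 genes of the integrated stress response 13 were higher and 9 lower in CM (33.7% and 33.5% of all genes). Psat1, an enzyme of serine synthesis, was at 143 and 143 CPM in CM and 33.5 and 31.3 CPM in GW501516 iCM, and Mthfd2, a mitochondrial folate enzyme, at 178 and 181 against 49.7 and 53.2 CPM. Stc2, the secreted protein stanniocalcin 2, was at 16.1 and 14.1 against 218 and 211 CPM, and Nupr1, a stress-induced nuclear protein, at 46.9 and 52.8 against 293 and 280.4 CPM. The 2 enzymes were 4.43- and 3.496-fold higher in CM, and Stc2 and Nupr1 14.1- and 5.75-fold lower. Atf4, the transcription factor at the centre of this response, was 1.78-fold higher in CM (349 and 360.1 against 199.8 and 198 CPM). Of 25 genes of protein quality control in muscle 19 were higher and 3 lower (33.7% and 33.5% of all genes). Trim55, a ubiquitin ligase of the sarcomere, was at 406 and 395 CPM in CM and 1.64 and 1.53 CPM in GW501516 iCM, and Klhl41, a kelch protein of the sarcomere, at 46.3 and 48.3 against 0.677 and 0.677 CPM. Both were below 2 CPM in GW501516 iCM. Fbxo32, the atrophy ligase atrogin-1, was at 25.9 and 22.9 CPM in CM, 187 and 190.5 CPM in GW501516 iCM and 98.7 and 95.8 CPM in DMSO iCM (7.71-fold lower in CM). Cryab, the small heat shock protein of the Z disc, was within 2-fold (994 and 965 against 789.99 and 763 CPM).

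Among all genes with at least 10 CPM in the higher group, the largest rises in CM, beside Ckm, the light chains and the natriuretic peptides, included Bmp10, a growth factor of the embryonic and atrial heart, with 13997 counts in CM and 2 in GW501516 iCM (ratio 6743, 95% counting interval 1866 to 55685). Lrrc10, a cardiac leucine-rich repeat protein, was at 43.2 and 40.7 CPM in CM and 0.0966 and 0 CPM in GW501516 iCM. Eef1a2, the elongation factor of muscle and neurons, was at 309 and 301 against 1.01 and 1.05 CPM (log2 change 8.20, SE 0.14, adjusted p = 2e-11). Aqp4, a water channel, had 1044 counts in CM and 2 in GW501516 iCM. In GW501516 iCM these genes were at about 1 CPM or less. The largest falls outside the interferon list were Col22a1, a collagen of muscle junctions, with 0 counts in CM and 36.8 and 38.3 CPM in GW501516 iCM (at least 1056-fold lower in CM), Scg2, Kcnc4 and Fgf23. Scg2, the secretory granule protein secretogranin II, was at 0.0884 and 0.614 CPM in CM, 1523 and 1489 CPM in GW501516 iCM, 1617 and 1676 CPM in DMSO iCM and 316 and 386 CPM in CF. Kcnc4, a potassium channel, was at 0.177 and 0 CPM in CM, 234 and 236 in GW501516 iCM, 221 and 213 in DMSO iCM and 0.0944 and 0.197 in CF. Fgf23, a phosphate-regulating hormone of bone, was at 0 and 0.102 CPM in CM, 20.3 and 23.6 in GW501516 iCM, 4.598 and 4.68 in DMSO iCM and 0 and 0.0656 in CF. Kcnc4 was therefore high in GW501516 and DMSO iCM and near 0 in both CM and CF, whereas Scg2 was also high in CF. The changes were −12.13 (SE 0.25, adjusted p = 6.3e-11), −11.24 (SE 0.20, adjusted p = 2.6e-11) and −8.78 (SE 0.48, adjusted p = 6.7e-08).

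The most abundant genes outside the lists whose interval lay inside 2-fold were general to many cells. Eef1a1, the common elongation factor, was at 7326 and 7302 CPM in CM and 5304 and 5147 CPM in GW501516 iCM (1.40-fold). Vim, the filament protein vimentin of mesenchymal cells, was at 3107 and 3041 against 3039.6 and 3029.6 CPM and was not called (interval −0.10 to 0.14). Itgb1, the beta 1 integrin, was at 2550.1 and 2627 against 4088 and 4062 CPM (1.57-fold lower in CM). The remaining 7 were within the same band. The calls of Actb and Actg1, cytoplasmic actins 1.12- and 1.11-fold higher in CM, were lost when any of the 4 libraries was left out (adjusted p from 0.0847 to 0.131). Eef2 and Fstl1, a translation factor and a secreted glycoprotein, were 1.30-fold higher and 1.56-fold lower in CM.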

How the data were processed

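Per the submitters' processing notes, the authors used Trimmomatic 0.36, HISAT2, SAMtools, featureCounts and Subread 1.5.1 with the build mm10. The deposited files hold raw counts of reads in each gene for 10 libraries, made from TRIzol-extracted RNA with a TruSeq kit per the labels' protocols. Annotation, strand setting and the treatment of reads with several matches were not given in the sources used here. Overlapping, antisense and near-identical genes are thus uncertain. Total counts ranged from 39065969 to 61886463.

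Counts were scaled by TMM, filtered with filterByExpr and fitted in edgeR 4.0.16 (R 4.3.3) by quasi-likelihood with all 5 groups, because the compared groups hold 2 libraries each. P-values were adjusted over all 15740 genes by the Benjamini-Hochberg method and called at 0.05. The SE is the size of a log2 change divided by the root of F, and intervals are 95%, without adjustment for the number of genes. Isoform ratios had 0.5 added to each count. Where a group held no counts, folds are bounds from a floor of 3 counts over the group. These bounds and the counting intervals cover counting error only. The method was tested on simulated data. Alternatives were DESeq2 1.42.0, limma-voom (limma 3.58.1), other scalings, filters and thresholds, fewer groups, a replicate block and leaving out each compared library.

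The comparison and the 38 gene lists were chosen with earlier results of these data known. List genes without a row in the table were not analysed here, and 28 with low counts were not tested. Genes were named by a rule: the study genes, the 10 largest rises and falls with at least 10 CPM, leaving out predicted and clone names, from each list up to 4 called members of smallest p, up to 2 called against the list's majority, up to 2 within 2-fold with the highest level, the isoform pairs, and 10 abundant unlisted genes within 2-fold. The text gives most of these. Pdgfra, Dcn, Ryr2, Nkx2-5, Irx4, Ifit1, Isg15, Rsad2 and Cdc20 fall outside the rule and were chosen after values were seen or as markers. Some genes are not reported here. Figures were drawn with matplotlib 3.10.9.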

Additional observations from a re-analysis of the deposited data

How the results depend on the processing

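The counts of genes higher and lower in CM (5300 and 5273) stayed within 1.5 times under every alternative run: 5363 and 5239 with DESeq2 size factors, 5030 and 5591 with library totals alone, 5084 and 5036 by DESeq2, 5224 and 5029 by limma-voom, 5226 and 5378 with no filter, 5038 and 5043 with a filter of 1 CPM in 2 libraries, 5537 and 5647 with only the compared groups, 5660 and 5717 without CF, 4501 and 4461 at an adjusted p of 0.01, and 4696 to 4782 higher and 4654 to 4755 lower when 1 of the 4 libraries was left out, where the lone library of a group is assumed to vary like the others. No gene called in the main analysis was called in the opposite direction under any of them, and 8962 to 10573 kept call and direction. Library totals alone moved the median of all genes from −0.0039 to −0.044. The median log2 change changed sign for 4 lists: with the filter of 1 CPM in 2 libraries, which tests fewer members, receptors from −0.0850 to 0.124 and smooth muscle and pericyte markers from 0.438 to −0.177, and with 1 library left out glycogen metabolism from −0.0308 to 0.108 without GW501516 replicate 1 (range −0.0793 to 0.108) and the 3 erythroid markers, whose median is Rhag, from −0.0364 to 0.105 without CM replicate 1 and 0.0903 without GW501516 replicate 2 (range −0.188 to 0.105). Replicate numbers did not pair the samples (correlation of replicate deviations 0.0398 between CM and GW501516 iCM), and with a replicate block 5230 genes were higher and 5212 lower. Of the named genes under all alternatives, 3844 results stayed on their side of the threshold in the same direction, 78 lost the call, 27 gained it and 10 changed sign, none of them called in either analysis. These 10 were Ncor1, from −0.0031 to 0.0033 with DESeq2 size factors, 0.0033 by DESeq2, 0.0787 without CM replicate 2 and 0.0467 without GW501516 replicate 2 (range with 1 library left out −0.0907 to 0.0787); with library totals alone Tnnt2, from 0.025 to −0.015, Yme1l1, from 0.038 to −0.0018, and Vim, from 0.018 to −0.022; Ngfr, from 0.209 to −0.150 without CM replicate 1 (range −0.150 to 0.489); and the 2 values of Rhag above. Without CF, Ankrd1, Casq2, Cacna2d1, Pde3a and Acta2 were called as well. Ctss, a macrophage protease, lost its call by limma-voom (adjusted p = 0.103). With 2 libraries in each group, small changes rest on the spread shared over 5 groups.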

Other observations

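Further genes picked by the same rule filled in several of these groups. Slc25a3, the phosphate carrier of the inner mitochondrial membrane, was at 640.2 and 662 CPM in CM and 412 and 414 CPM in GW501516 iCM, and Hspd1, the mitochondrial chaperonin, at 433 and 459 against 235 and 231 CPM. Both were higher in CM, by 1.58- and 1.91-fold. Klhl31, a kelch protein of muscle, was at 47.0 and 45.7 CPM in CM and 3.29 and 2.51 CPM in GW501516 iCM (15.97-fold). Inpp5j, a phosphoinositide phosphatase, was at 16.6 and 13.4 CPM in CM and 0 and 0.1004 CPM in GW501516 iCM, so it was near 0 in the latter. Sema3d, an epicardial guidance cue, was lower in CM (76.8 and 70.8 against 223 and 232 CPM, adjusted p = 5.4e-09), as was Ltbp3, a latent TGF-β binding protein (129 and 120.04 against 341 and 337 CPM, adjusted p = 1.3e-08). Ifi44, an interferon-induced protein, was at 0.0884 and 0.102 CPM in CM and 256 and 245 CPM in GW501516 iCM. Me1, the cytosolic malic enzyme that makes NADPH for lipid synthesis, was 1.53-fold lower in CM, and Vldlr, the receptor for very low density lipoprotein, 1.25-fold higher. Upk1b, a tetraspanin of the mesothelium, was 1.45-fold lower in CM (40.2 and 40.1 against 56.9 and 59.3 CPM).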
